A study of Homo sapiens with 12 samples.

Results

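Strong H3K4me1 summits that were listed with 15 µM choline and had no H3K4me1 summit of the 0 µM list within 2 kb numbered 1298, of 349202 H3K4me1 summits at 15 µM in all. A summit is the position of highest enrichment in a called peak, and a strong summit is defined by a score of at least 10, the −log10 of the caller's p-value or q-value. The members were chosen by comparing the deposited H3K4me1 lists of both doses, so their presence in the 15 µM list and their absence within 2 kb from the 0 µM list is the rule and not a result. Of the 39414 strong summits at 15 µM, the members were 3.29% (95% interval 3.12 to 3.47). The same rule turned round, strong 0 µM summits with no 15 µM summit within 2 kb, took 2432 of 32692, or 7.44% (7.16 to 7.73).

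The cells were Huh7, a human hepatocellular carcinoma line, with the genotype labelled WT. The treated group received 15 µM choline for 48 h and its control group 0 µM choline for 48 h. Both were kept in a custom DMEM made without choline chloride, in which B-27 supplement took the place of fetal bovine serum, and choline chloride was added back at 15 µM. Each group had 1 H3K4me1 and 1 H3K27ac ChIP-seq library, so each difference is between 2 libraries of 1 cell line, without a replicate check and without a test. Intervals are exact binomial ones after Clopper and Pearson; they cover counting error alone and treat neighbouring summits as independent. In all, 29305 H3K27ac summits were listed at 15 µM, against 37946 at 0 µM, and the 0 µM H3K4me1 list had 343156. Read depth is unknown. The liver label was compared with H3K27ac around marker genes. Summed over the 50 kb windows of 10 hepatocyte markers, there were 184 summits at 15 µM and 158 at 0 µM. Every hepatocyte marker had a summit at 1 or both doses. Windows of neighbouring markers overlap, so 1 summit can be counted for several markers. FGA, FGB and FGG lie side by side and had 27 summits each at 15 µM. Summed likewise, the 5 blood cell markers had 4 and 3 summits, and each of them also had a summit at 1 or both doses. The 5 fibroblast, stellate and endothelial markers had 15 and 12, and 2 of them had no summit at either dose. The 5 neuron and muscle markers had 13 and 12, and 3 of them had no summit at either dose.

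H3K4me1, monomethylation of lysine 4 of histone H3, is laid down chiefly by KMT2C and KMT2D at enhancers, whether active or poised, and on the flanks of active promoters. H3K27ac, acetylation of lysine 27 of the same histone, marks active enhancers and promoters. H3K4me1 together with H3K27ac is commonly read as an active element, and H3K4me1 alone as a primed or poised one. Choline feeds phosphatidylcholine synthesis and, after oxidation to betaine, the remethylation of homocysteine to methionine, the precursor of the methyl donor of histone methyltransferases. The series also concerns KLF5, a zinc-finger factor of a family that binds GC-rich CACCC-type sites.

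Very few members lay at promoters, as far as starts were annotated. Starts were matched for 15812 of 19974 protein-coding genes, 1 for each, so members at other starts are not counted. An annotated gene start lay within 1 kb of 6 members (0.462%, 0.170 to 1.0), against 1.07% (0.972 to 1.18) of the 38116 strong 15 µM summits with a 0 µM summit within 2 kb. Sequence of these places is given as the 250 bases before the annotated start, 5′ to 3′ on the gene's strand, from RefSeq on GRCh38.p14. Capitals mark matches to the KLF-type motif CCNCNCCC or its reverse complement GGGNGNGG. TNFSF4 is shown because its member was, among the 6, the only summit inside the printed window, AGMO and SLC38A1 because they hold matches, and RPS19 as a start without one.
TNFSF4: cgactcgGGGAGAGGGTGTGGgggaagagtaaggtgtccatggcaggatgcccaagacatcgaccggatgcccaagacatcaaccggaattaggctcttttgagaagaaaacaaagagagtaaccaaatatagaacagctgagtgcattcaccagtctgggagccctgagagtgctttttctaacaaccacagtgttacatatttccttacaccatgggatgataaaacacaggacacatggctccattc
AGMO: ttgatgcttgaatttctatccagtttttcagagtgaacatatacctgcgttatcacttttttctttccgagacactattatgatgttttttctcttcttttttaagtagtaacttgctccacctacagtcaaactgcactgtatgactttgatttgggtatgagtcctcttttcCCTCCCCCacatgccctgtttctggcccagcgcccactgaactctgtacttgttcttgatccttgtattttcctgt
SLC38A1: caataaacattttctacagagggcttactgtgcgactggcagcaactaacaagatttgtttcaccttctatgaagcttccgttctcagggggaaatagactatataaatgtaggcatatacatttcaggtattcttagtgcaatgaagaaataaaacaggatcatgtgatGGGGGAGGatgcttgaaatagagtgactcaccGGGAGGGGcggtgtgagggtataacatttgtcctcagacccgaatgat
RPS19: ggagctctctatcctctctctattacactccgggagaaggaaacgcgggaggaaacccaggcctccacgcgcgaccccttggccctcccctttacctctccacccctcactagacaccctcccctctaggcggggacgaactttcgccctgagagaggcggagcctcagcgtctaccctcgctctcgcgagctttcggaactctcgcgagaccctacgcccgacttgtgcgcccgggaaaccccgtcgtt

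TNFSF4 encodes the OX40 ligand (chr1:173205533-173205782 for the window, minus strand). Its member lay 227 bp before the start, at base 24 of the window, and 2 overlapping matches covered bases 8 to 21. AGMO, an ether lipid monooxygenase (chr7:15562016-15562265, minus strand), had its member 330 bp before the start. SLC38A1, a glutamine transporter (chr12:46266517-46266766, minus strand), had its member 191 bp after the start, and RPS19, a ribosomal protein of the small subunit (chr19:41860005-41860254, plus strand), had its member 927 bp before the start. The other starts, of SYTL5 and of GTPBP4, held no match in the same window. The motif was thus present in 3 of 6 such promoters and in 18750 of all 35116 promoters of the table (53.4%). A match describes letters and not a bound site.

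The scores of these summits were 17.7 at AGMO, 14.2 at SLC38A1, 12.9 at SYTL5, 11.9 at TNFSF4 and 10.6 at RPS19. At TNFSF4 and AGMO both H3K27ac lists had a summit within 1 kb. At RPS19 the nearest H3K27ac summit was 216343 bp away at 15 µM and 683 bp away at 0 µM.

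The members' absence from the 0 µM list held at the scale of the rule and not much beyond it. The nearest 0 µM H3K4me1 summit lay at a median of 2619.5 bp (quartiles 2239 and 3381, range 2001 to 69785). It was over 2 and up to 3 kb away for 846 members (65.2%), up to 5 kb for 346 (26.7%), up to 10 kb for 92 (7.09%) and farther for 14 (1.08%). That nearest 0 µM summit was itself strong for 842 members (64.9%, 62.2 to 67.5), with a median score of 14.5 in its own list. The share was 54% (53.5 to 54.5) for the strong 15 µM summits with a 0 µM summit within 2 kb. For the strong 0 µM summits with no 15 µM summit within 2 kb, the nearest 15 µM summit was strong in 65.7% (63.7 to 67.6). For 424 members (32.7%, 30.1 to 35.3) the nearest 0 µM summit was in turn a strong 0 µM summit with no 15 µM summit within 2 kb. The files hold summits without peak edges, so a mark whose highest point lay elsewhere within a wide peak and a mark that was absent cannot be told apart.

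**Figure D1:**
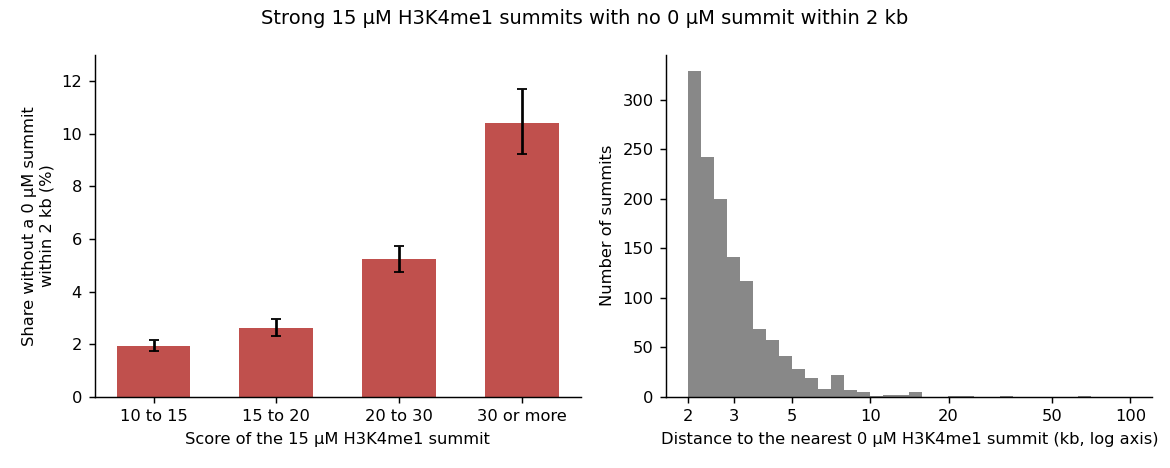
Left, the share of strong 15 µM H3K4me1 summits with no 0 µM summit within 2 kb in each band of score (−log10 of p or q), with exact 95% intervals. Right, the number of members by distance to the nearest 0 µM H3K4me1 summit on a log axis in kb: 846 of 1298 lie within 3 kb, and 14 lie beyond 10 kb.

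Members scored between 10.1 and 85.6, with quartiles of 14.0, 20.3 and 28.3. The 38116 strong summits with a 0 µM summit within 2 kb had a median of 15.1 and a highest score of 158. The share of strong summits without a 0 µM summit within 2 kb was larger in the higher score bands. It was 1.94% (1.75 to 2.15) at scores of 10 to 15, 2.62% (2.32 to 2.96) at 15 to 20, 5.22% (4.74 to 5.73) at 20 to 30 and 10.4% (9.23 to 11.7) at 30 or more, where 249 of 2389 were members. Members also lay farther from other summits of their own list, with a median of 2815.5 bp to the next 15 µM summit, against 1868 bp for the rest of the strong summits. Just inside the rule were scores of 10.07 and 10.08 and distances of 2001 and 2002 bp. Just outside it were scores of 9.94 and 9.96, distances of 1999 and 2000 bp, and 521 summits with scores of 8 to 10 and no 0 µM summit within 2 kb.

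Summits were also counted around the members. Within 2 kb, where the rule itself leaves 0 summits of the 0 µM H3K4me1 list, the 15 µM list held 1756, the members included. From 2 to 5 kb the sums were 2086 at 15 µM and 2851 at 0 µM, and from 2 to 10 kb they were 6172 and 7232. The windows are centred on 15 µM summits and the rule chose on both lists, so the choice itself shapes these sums. No such sums were made for other strong summits. Over the whole 50 kb on either side the sums were 36716 at 15 µM and 37676 at 0 µM, and 539 members had more 15 µM summits around them, 671 had more 0 µM summits and 88 had equal numbers. The gap that each member occupied between flanking 0 µM summits was 7.5 kb at the median (quartiles 5.75 and 10.3). A total of 426 members stood alone in their gap, 393 shared it with 1 other 15 µM summit and 479 with 2 or more.

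The highest-scoring member lay at chromosome 14, position 31966421 (hg38), 105197 bp outside NUBPL, an assembly factor of respiratory complex I, with a score of 85.6. Its nearest 0 µM H3K4me1 summit was 2365 bp away and had a score of 54.7, and both H3K27ac lists had their nearest summit just past 1 kb, at 1227 bp for 15 µM and 1212 bp for 0 µM. The next member by score lay 78285 bp outside BBOX1, the last enzyme of carnitine synthesis, with a score of 69.9 and a 0 µM summit of score 58.1 at 3035 bp. A member inside SPATS2L had a score of 62.1, and the 0 µM summit nearest to it, at 4637 bp, scored 8.55. Members inside FRY, SMURF1, a ubiquitin ligase of SMAD signalling, and FRK, a kinase of the Src family, scored 56.0, 55.6 and 54.7. Those of MAML3, a coactivator of Notch, LGR4, which binds R-spondins in Wnt signalling, and SATB1, a chromatin organiser, scored 52.4, 51.9 and 51.4. BCL2L1, which encodes the survival protein BCL-XL, PACS1, a sorting protein, and RERE, a nuclear corepressor, had members of 49.9, 49.7 and 49.4. Of these 12 members, 9 lay inside the gene named and 3, those of NUBPL, BBOX1 and SATB1, between genes.

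**Figure D2:**
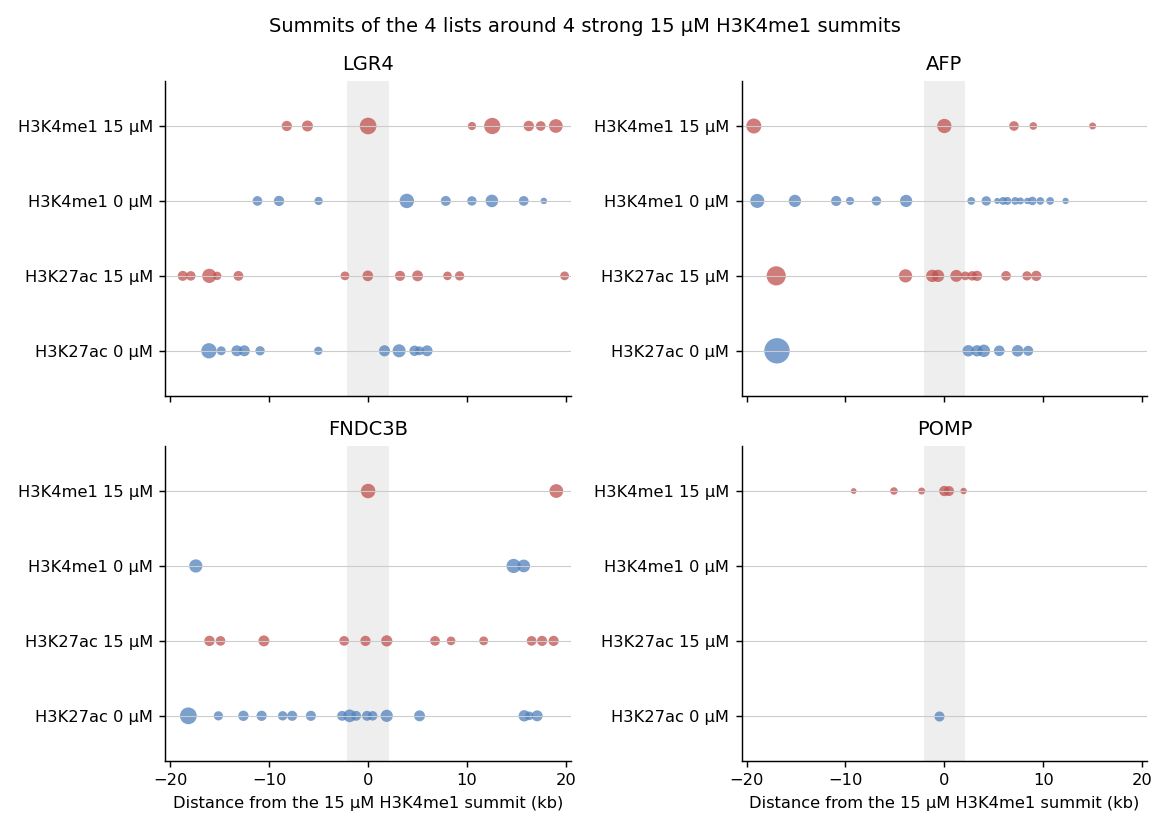
Summits of all 4 lists within 20 kb of 4 members, by distance from the member in kb, with 15 µM in red and 0 µM in blue. Dot area increases with the score, and the grey band is the 2 kb on either side in which the 0 µM H3K4me1 row is empty by the rule. At LGR4, AFP and FNDC3B the 0 µM row holds 9, 18 and 3 summits outside the band, and at POMP it holds 0.

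The 4 mapped members differ in what lies around them. At LGR4 the member stood between 0 µM summits at offsets of -5009 and 3914 bp, and a 15 µM H3K27ac summit with a score of 11.8 lay 32 bp from it. The nearest 0 µM H3K27ac summit there was 1659 bp away with a score of 13.6. Within 20 kb of that member the 15 µM list had 8 H3K4me1 and 12 H3K27ac summits, and the 0 µM list 9 and 11. AFP, the fetal serum protein that many liver cancers make again, held a member of score 31.1 at chromosome 4, position 73449506, inside the gene. At 15 µM, 3 H3K27ac summits lay within 2 kb of it, with scores of 19.1, 18.7 and 17.3, whereas the nearest 0 µM H3K27ac summit was 2421 bp away. Within 20 kb the H3K27ac lists held 11 summits at 15 µM and 7 at 0 µM. The highest of these scored 82.7 at 15 µM, at an offset of -17001 bp, and 210 at 0 µM, at -16923 bp. Within 20 kb of that member the 15 µM H3K4me1 list held 5 summits and the 0 µM list 18, of which the median score was 4.34.

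Only 14 members had no 0 µM H3K4me1 summit within 10 kb. These were picked after their values were seen. They lay nearest to FRG2C, POMP, AREL1, AMY1C, TXLNB, NIPAL2, LONP2, FNDC3B, NVL, RCAN2, FSIP2, WWOX, AATF and ACTBL2. Their median score was 11.7, against 20.2 for the members whose nearest 0 µM summit was 2 to 3 kb away. The member of FRG2C, 300891 bp outside the gene, stood farthest, at 69.8 kb from any 0 µM summit, in a gap of 153 kb that held 6 summits at 15 µM and no H3K27ac summit at either dose. That of POMP, the proteasome assembly chaperone, had a score of 10.6 in a gap of 75.5 kb with 9 summits at 15 µM, of which no other was strong, and with 0 H3K27ac summits at 15 µM and 1 at 0 µM. The exception in score was FNDC3B, where a member of score 32.4 stood alone in a gap of 32.1 kb, in which the 15 µM list had 9 H3K27ac summits and the 0 µM list 13. Without FNDC3B, no member of the 14 had 15 µM H3K27ac within 1 kb, and 1, that of POMP, had 0 µM H3K27ac.

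H3K27ac is a measure that the rule did not use. A 15 µM H3K27ac summit lay within 1 kb of 535 members (41.2%, 38.5 to 44.0) and a 0 µM H3K27ac summit within 1 kb of 555 (42.8%, 40.0 to 45.5). Over all 39414 strong 15 µM summits the shares were 21.7% at 15 µM and 26.6% at 0 µM, and over the strong summits that had a 0 µM counterpart 21% (20.6 to 21.5) and 26.1% (25.7 to 26.5). Members were thus more often acetylated than the rest at both doses, by intervals that do not overlap, and the members' own intervals for the doses do overlap. With the rule's distance set to 5 kb, the wide intervals of the 106 summits included the shares of the rest, so no excess was shown. Of those 106, 27.4% (19.1 to 36.9) had 15 µM H3K27ac, against 21.7% of the rest. For 0 µM H3K27ac the shares were level, at 26.4% (18.3 to 35.9) against 26.6%. The strong 0 µM summits with no 15 µM summit within 2 kb gave 41.3% (39.4 to 43.3) at 15 µM and 45.5% (43.5 to 47.5) at 0 µM.

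Split by dose, 383 members (29.5%, 27 to 32.1) had H3K27ac within 1 kb in both lists, 591 (45.5%, 42.8 to 48.3) in neither, 152 (11.7%, 10.0 to 13.6) at 15 µM only and 172 (13.3%, 11.5 to 15.2) at 0 µM only. All strong 15 µM summits had 6.45% at 15 µM only and 11.4% at 0 µM only. The order of the single-dose classes turned with list length. When both H3K27ac lists were cut to the 29305 highest scores, 199 members (15.3%) had the mark at 15 µM only and 132 (10.2%) at 0 µM only, against 7.76% and 8.36% of the strong summits with a 0 µM counterpart. In the lists as deposited, 15 µM was the dose in 46.9% (41.4 to 52.5) of the 324 members marked at 1 dose. It was the dose in 35.6% (34.5 to 36.8) of the strong summits with a 0 µM counterpart and in 42.5% (38.7 to 46.3) of the strong summits found only at 0 µM.

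Score and H3K27ac went together, and the gap between members and the rest was present within each score band for 15 µM H3K27ac. At scores of 10 to 15, 23% of members (18.8 to 27.6) and 12.6% of the rest (12.1 to 13.1) had it. At 15 to 20 the shares were 35% and 21.4%, at 20 to 30 they were 51.0% and 33.9%, and at 30 or more 58.6% (52.2 to 64.8) and 48.0% (45.9 to 50.2). For 0 µM H3K27ac the members had 23%, 43.3%, 51.4% and 57.0% over the same bands and the rest 17.4%, 27.7%, 38.4% and 50.7%. In the highest band the 0 µM intervals of members (50.6 to 63.3) and the rest (48.6 to 52.9) overlap.

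**Figure D3:**
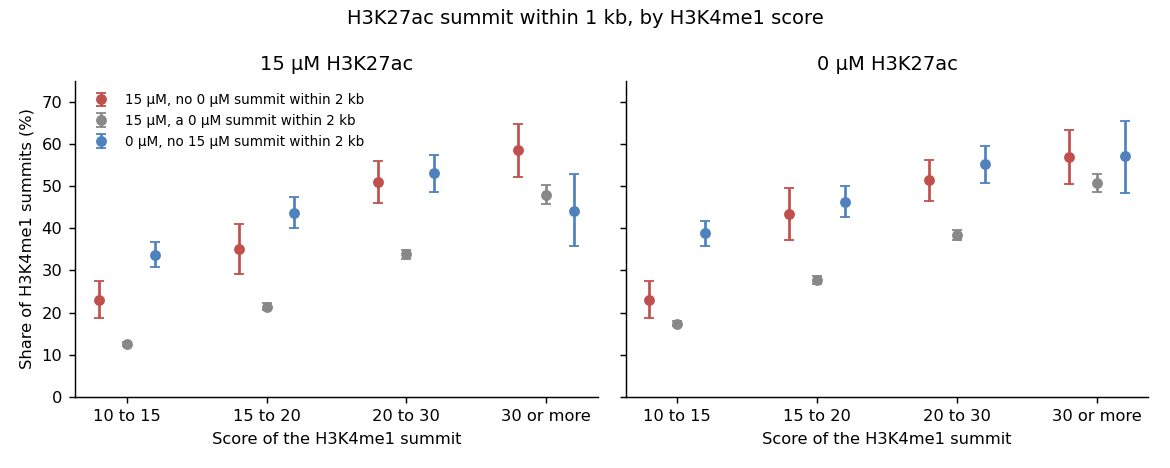
Share of H3K4me1 summits with an H3K27ac summit within 1 kb, at 15 µM (left) and 0 µM (right), by H3K4me1 score, with exact 95% intervals. Red is the members, grey the strong 15 µM summits with a 0 µM summit within 2 kb, and blue the strong 0 µM summits without a 15 µM summit within 2 kb, whose scores come from another list. Red lies above grey in each band, with overlapping intervals in the highest band at 0 µM.

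Acetylation was also set against the distance to the nearest 0 µM H3K4me1 summit. For distances of 2 to 3 kb, 40.8% (37.4 to 44.2) had 15 µM H3K27ac and 43.3% (39.9 to 46.7) 0 µM H3K27ac. For 3 to 5 kb the share was 46.5% (41.2 to 51.9) in both lists, and for 5 to 10 kb it was 30.4% (21.3 to 40.9) at 15 µM and 28.3% (19.4 to 38.6) at 0 µM. In both lists the intervals of the 3 to 5 kb and 5 to 10 kb bands do not overlap. Of the 1298 members, 577 had a 15 µM H3K27ac summit between them and their nearest 0 µM H3K4me1 summit, and 653 a 0 µM H3K27ac summit. An annotated gene start lay in that stretch for 26 members. The 0 µM H3K27ac list was the longer, with 37946 summits against 29305, and no such counts were made for other strong summits.

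**Figure D4:**
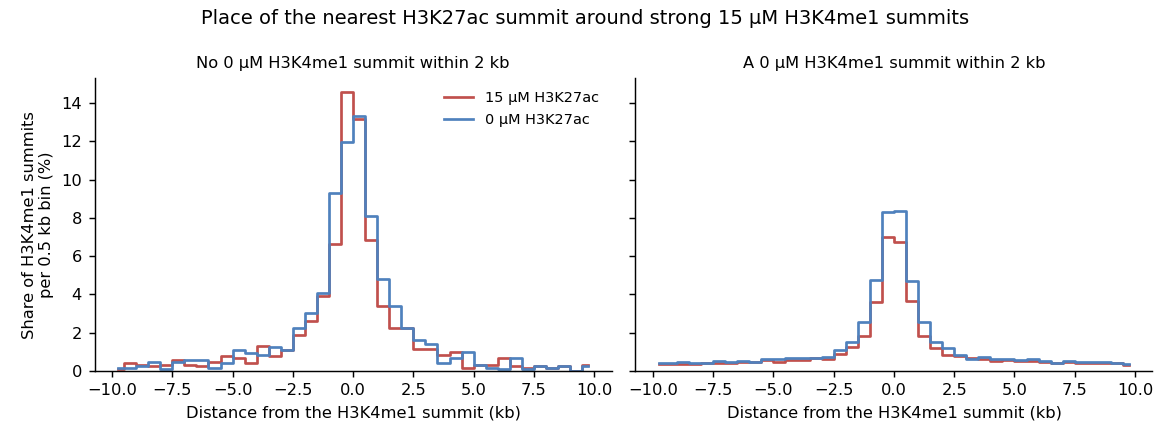
Share of strong 15 µM H3K4me1 summits whose nearest H3K27ac summit falls in each 0.5 kb bin, by distance in kb, for members (left) and for strong summits with a 0 µM H3K4me1 summit within 2 kb (right). Red is 15 µM H3K27ac and blue 0 µM H3K27ac. Among members the 0.5 kb on the left of the summit holds 14.6% at 15 µM and 11.9% at 0 µM, and that on the right 13.2% and 13.3%.

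Named members show the classes that had H3K27ac. With H3K27ac at 15 µM only, the 6 of highest score lay in SPATS2L, FRK, LGR4, UTRN, FRY and THRB. UTRN encodes utrophin of the cytoskeleton, and THRB a thyroid hormone receptor. At THRB the member scored 49.2, a 15 µM H3K27ac summit lay at 221 bp and the nearest 0 µM summit at 5436 bp. At SPATS2L, FRK, LGR4 and FRY the nearest 0 µM summit was closer, between 1207 and 1659 bp, past the limit of 1 kb but within 2 kb.

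With H3K27ac at 0 µM only, the 6 of highest score lay in or near MAML3, CERS6, KLF12, ANXA1, MED13L and TBC1D8. CERS6 is a ceramide synthase, KLF12 a repressor of the Krüppel-like family, ANXA1 a phospholipid-binding annexin and MED13L a subunit of the Mediator kinase module. At MED13L the member scored 43.0, the nearest 15 µM H3K27ac summit lay at 10411 bp and the 0 µM summit at 607 bp. At KLF12 the member scored 47.4, with 15 µM H3K27ac at 1334 bp and 0 µM at 794 bp, on either side of the limit. With both, the leading members were those of BBOX1, FRY, SATB1, BCL2L1, RERE and MAP4K4, a kinase of stress and adhesion signalling. At MAP4K4 the 15 µM and 0 µM H3K27ac summits lay 255 and 40 bp from a member of score 49.3.

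Most members lay inside genes. Of the 1298, 857 (66.0%, 63.4 to 68.6) lay inside a protein-coding gene and over 1 kb from its ends, 421 (32.4%, 29.9 to 35.1) between genes and 20 (1.54%, 0.944 to 2.37) within 1 kb of a gene end, meaning either annotated end. The rest of the strong 15 µM summits had 58.3%, 39.0% and 2.66%. The strong summits found only at 0 µM had 66.9%, 31.3% and 1.81%, within the members' intervals. H3K27ac lay within 1 kb of 42.6% of members inside genes at 15 µM and 44.7% at 0 µM, and of 37.8% and 38.7% of those between genes. Exons and introns were not assigned.

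The gene-end members of highest score included those of BCL2L1, TIGD2, DUSP6, INHBE and CRIPTO. DUSP6 switches off ERK kinases, INHBE encodes a liver-made activin chain and CRIPTO a coreceptor of Nodal. At DUSP6 the member scored 32.7, with H3K27ac 364 bp away at 15 µM and 235 bp away at 0 µM. At INHBE it scored 25.5, with H3K27ac 51 bp away at 15 µM and 25 bp away at 0 µM. The others of the 10 named by score were VIL1, the villin of microvilli, ABCD3, a peroxisomal transporter, TCIM, AGMO and MED29, a Mediator subunit, with member scores between 17.7 and 20.03.

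Members were scattered. Joined within 10 kb they formed 1216 loci, of which 1143 had 1 member, 64 had 2 and 9 had 3. Their share of the strong 15 µM summits ran from 1.71% on chromosome 13 to 4.90% on chromosome 19, and chromosome 2 held the most, 134. The 6 loci of 3 members with the highest summed scores lay in or near VTI1A, ADD1, ELOVL2, CD58, TENT5A and SOX5. VTI1A is a vesicle SNARE, ADD1 the cytoskeletal protein adducin, CD58 an adhesion ligand of T cells and SOX5 a transcription factor. In ELOVL2, an elongase of long polyunsaturated fatty acids, the 3 members spanned positions 11030293 to 11037811 of chromosome 6 and scored 10.6, 29.7 and 25.5. H3K27ac lay within 1 kb of the last of them only, at 445 bp for 15 µM and 346 bp for 0 µM. In SOX5 all 3 had H3K27ac of both doses within 1 kb.

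A member lay inside 677 of 19974 protein-coding genes (3.39%) and inside or within 50 kb of 1450 (7.26%). Long genes held more of them: 0.301% of genes up to 20 kb had a member inside, 10.5% of genes of 100 to 200 kb and 16.5% of longer ones. As a share of the strong 15 µM summits inside the genes, however, members were 2.23% (1.47 to 3.22), 4.20% (3.72 to 4.73) and 3.69% (3.31 to 4.09) in those classes. PTPRM, a receptor tyrosine phosphatase of cell contacts, held the most with 7, then FNDC3B with 6, and CAMK2D, a calcium-calmodulin kinase, and PTPRK, a relative of PTPRM, with 5 each. In PTPRM (chromosome 18, 7567316 to 8406856) the member scores were 41.8, 29.7, 17.8, 14.8, 14.4, 13.3 and 10.6. Of its members, 1 had H3K27ac within 1 kb at 15 µM only, 1 at 0 µM only, 1 at both and 4 at neither. Within 50 kb of PTPRM the H3K4me1 lists held 281 summits at 15 µM and 283 at 0 µM.

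In CAMK2D (chromosome 4, 113451032 to 113761738) the 5 members lay at 113643461, 113651181, 113661530, 113664352 and 113666258, within 1 stretch of the gene, at 2462 to 7887 bp from the nearest 0 µM summit. Of these, 2 had H3K27ac of both doses within 1 kb. In FNDC3B the 6 members scored between 27.1 and 36.3, so that all lay above the median of members, and 5 of them had a 15 µM H3K27ac summit within 1 kb. PTPRK had 199 H3K4me1 summits at 15 µM and 226 at 0 µM within 50 kb, and its member of highest score had 37.8.

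**Figure D5:**
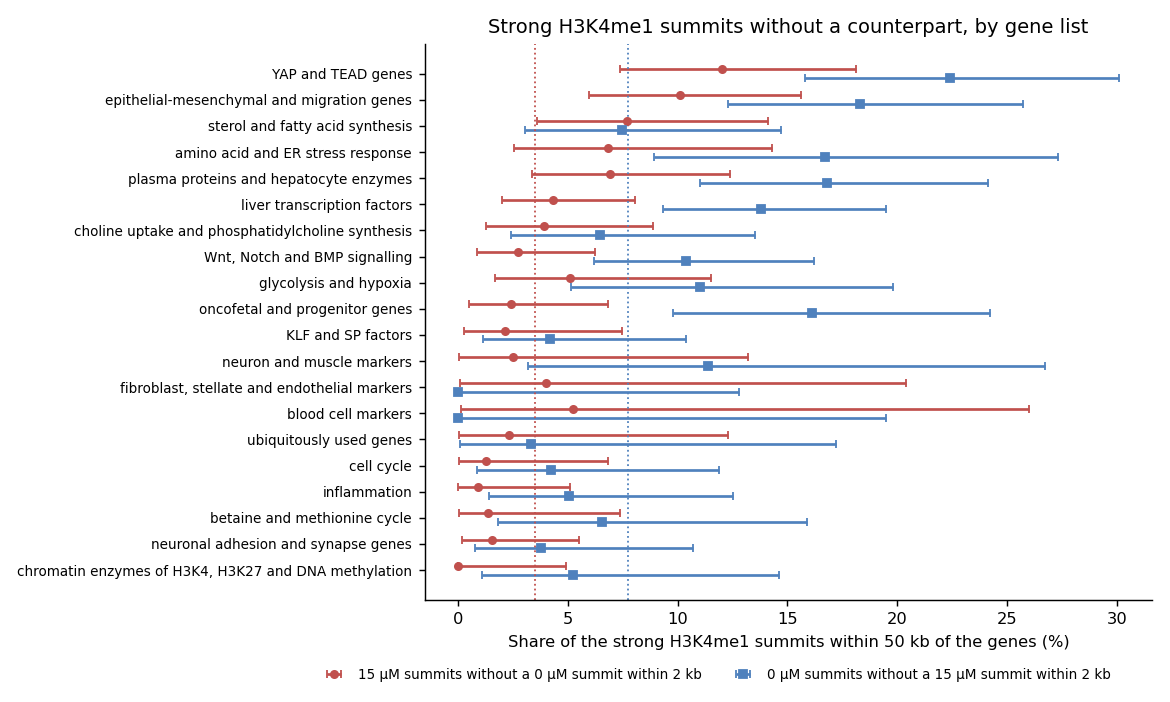
Share of the strong H3K4me1 summits within 50 kb of the genes of each list that had no counterpart of the other dose within 2 kb, with exact 95% intervals: red circles are 15 µM summits (the members) and blue squares 0 µM summits. Dotted lines are the shares over all protein-coding genes, 3.50% for 15 µM and 7.74% for 0 µM. The YAP and TEAD genes stand highest for both.

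Around all protein-coding genes, members were 3.50% (3.30 to 3.71) of the strong 15 µM summits within 50 kb. Of 20 gene lists, 2 had intervals wholly above this interval. Around the genes of the Hippo pathway and its YAP and TEAD targets, members were 19 of 158 strong 15 µM summits (12%, 7.40 to 18.1). Around genes of epithelial-mesenchymal transition and migration they were 17 of 169 (10.1%, 5.97 to 15.6). TGFB2 is on both lists. The reverse share was also high there. Strong 0 µM summits without a 15 µM summit were 22.4% (15.8 to 30.1) and 18.3% (12.3 to 25.7) of the strong 0 µM summits around these lists. Over all genes that share was 7.74% (7.42 to 8.07). Its interval also lay wholly above that of all genes for plasma proteins and hepatocyte enzymes, liver transcription factors and oncofetal genes. The same held for the amino acid and ER stress response, so a high reverse share was not particular to the YAP and migration lists. The lists were chosen with results of these data known, so these shares describe and do not test.

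Among the YAP and TEAD genes, 11 of 24 had a member within 50 kb (45.8%, 25.6 to 67.2), against 7.26% of all protein-coding genes. Their median length was 51.2 kb, against 24.2 kb over all protein-coding genes. Longer genes more often held a member, and the counts of genes were not adjusted for length. AMOTL1, a scaffold that binds YAP, held a member of score 44.5, with 15 µM H3K27ac at 256 bp and 0 µM H3K27ac at 3154 bp. CRIM1, a transmembrane regulator of BMP signalling, held 3, with scores of 34.0, 20.2 and 14.0, none with H3K27ac of either dose within 1 kb. CCN2, the matricellular connective tissue growth factor, had a member of 31.4 at 5951 bp from the gene, with H3K27ac at 220 bp for 15 µM and 7 bp for 0 µM. YAP1, the coactivator itself, held 2 members, of 21.3 and 19.6, and TEAD1, its DNA-binding partner, held 2, of 29.7 and 24.2. At 1 of the members of YAP1 and 1 of those of TEAD1 both H3K27ac lists had a summit within 1 kb. Within 50 kb of YAP1 the H3K4me1 lists held 66 summits at 15 µM and 74 at 0 µM, and around TEAD1 they held 121 and 114.

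Among the genes of epithelial-mesenchymal transition, 9 of 25 had a member within 50 kb (36%, 18 to 57.5), against 7.26% of all protein-coding genes. Their median length was 62.5 kb, against 24.2 kb over all protein-coding genes. SMAD3, the transducer of TGF-beta signals, was the nearest gene of 5 members, of which 4 lay within 50 kb and 1, of score 30.02, lay 134564 bp outside it. They had scores of 48.09, 30.02, 30.02, 29.78 and 25.06. At 3 of them both H3K27ac lists had a summit within 1 kb and at 2 of them only the 0 µM list. TGFB2, a TGF-beta ligand, had 4 nearest members, of 24.97, 24.63, 18.93 and 11.71, and no H3K27ac of either dose within 1 kb of any. TGFBR2, a receptor of the same ligands, held a member of 38.4 with 15 µM H3K27ac at 1552 bp and 0 µM H3K27ac at 693 bp. FN1, the fibronectin gene, held 1 of 31.1, with 15 µM H3K27ac at 1154 bp and 0 µM H3K27ac at 3279 bp. The integrin genes ITGA6, ITGAV and ITGB1 and the cadherin gene CDH2 had 1 member each within 50 kb.

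Around liver genes the shares of members had intervals that include that of all genes, for plasma proteins and for transcription factors. Of 35 genes of plasma proteins and hepatocyte enzymes, 7 had a member within 50 kb (20%, 8.44 to 36.9), against 7.26% of all protein-coding genes. The neighbours FGA, FGB and FGG are among the 7, with 2 members each in overlapping windows, so shared members count for each gene. Members were 6.94% (3.38 to 12.4) of the strong 15 µM summits around this list, each summit counted once. The reverse share was 16.8% (11 to 24.1). Members near ALB, FGB and AHSG scored 16.5, 16.9 and 16.9, and none of these had H3K27ac of either dose within 1 kb. The nearest gene of the member near AHSG was FETUB, at 6561 bp. Of 30 liver transcription factors 5 had members, at 4.33% (2.0 to 8.05), with a reverse share of 13.8% (9.33 to 19.5). NFIA, a nuclear factor I protein, held 4, the highest of 43.0 with H3K27ac at 114 bp for 15 µM and 180 bp for 0 µM. HNF4A, a nuclear receptor of hepatocyte identity, held 2, and its member of 21.5 had 15 µM H3K27ac at 516 bp and 0 µM H3K27ac at 1167 bp. ONECUT1, a liver homeodomain factor, had a member of 16.5 with H3K27ac of both doses, at 63 bp for 15 µM and 108 bp for 0 µM. Of 19 annotated oncofetal and progenitor genes, 2 had members within 50 kb, AFP and GPC3, with a share of 2.40% (0.498 to 6.85) and a reverse share of 16.1% (9.81 to 24.2).

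Genes of choline use had shares whose wide intervals include that of all genes. Of 26 genes of choline uptake and phosphatidylcholine synthesis, 4 had a member within 50 kb (15.4%, 4.36 to 34.9), against 7.26% of all protein-coding genes. Members were 3.91% (1.28 to 8.88) of the strong summits there, with a reverse share of 6.45% (2.40 to 13.5). Despite its name, the list also holds enzymes that use phosphatidylcholine, among them SGMS1 and PLD1. SGMS1, a sphingomyelin synthase, held a member of 38.5 whose nearest H3K27ac summit was 21079 bp away at 15 µM and 19430 bp away at 0 µM. PLD1, a phospholipase D, held 1 of 30.25 with H3K27ac at 451 bp for 15 µM and 721 bp for 0 µM. SLC44A3, a choline transporter-like protein, held 1 of 18.97, with H3K27ac at 754 bp for 15 µM and 1675 bp for 0 µM, and CHKA, the choline kinase, had 1 within 50 kb. Of 26 betaine and methionine cycle genes 1 had a member, AHCYL1, a relative of the enzyme that clears S-adenosylhomocysteine. It scored 23.4, with 15 µM H3K27ac at 84 bp and 0 µM H3K27ac at 1248 bp. Around the 25 chromatin enzymes of H3K4, H3K27 and DNA methylation, 0 of 73 strong summits were members, which allows a share of up to 4.93%.

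Of 28 genes of sterol and fatty acid synthesis, 8 had a member within 50 kb (28.6%, 13.2 to 48.7), against 7.26% of all protein-coding genes. ELOVL2 was among them, and so were the neighbours FADS1 and FADS2, with 1 member each in overlapping windows. Members were 7.69% (3.58 to 14.1) of the strong summits around this list, with a reverse share of 7.45% (3.05 to 14.7). A member of 17.7 lay inside KLHL11 and within 10 kb of ACLY, which makes cytosolic acetyl-CoA. The H3K27ac summit nearest to this member was 8645 bp away at 15 µM and 55444 bp away at 0 µM. The amino acid and ER stress response had 5 of 21 genes and 6.82% (2.54 to 14.3), with a reverse share of 16.7% (8.92 to 27.3). Among them EIF2AK4, the kinase that senses uncharged tRNA, held a member of 10.9.

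Wnt, Notch and BMP signalling had 4 of 31 genes with a member and 2.73% (0.893 to 6.26), LGR4 and TCF7L2, a nuclear effector of Wnt, among them. At TCF7L2 the member scored 34.0, and its nearest H3K27ac summit lay 40274 bp away at 15 µM and 5993 bp away at 0 µM. Glycolysis and hypoxia had 3 of 28 and 5.10% (1.68 to 11.5), with EPAS1, a hypoxia-inducible factor, holding a member of 26.95 at 7694 bp from the nearest 0 µM H3K4me1 summit, with H3K27ac at 427 bp for 15 µM and 1 bp for 0 µM. The KLF and SP factors had 2 of 26, KLF6 and KLF12, and 2.13% (0.259 to 7.48). Inflammation had 1 of 25, IL1R1 (0.935% of strong summits), the cell cycle 1 of 24, CDK4 (1.27%), and neuronal adhesion and synapse genes 1 of 30, DLG2 (1.56%). Ubiquitously used genes had 1 of 20 (2.33%). The lists of other cell types had 1 gene each with a member: LYZ for blood (5.26%), COL1A1 for fibroblast, stellate and endothelial cells (4%), and SYT1 for neuron and muscle (2.5%). The intervals of all these shares include the 3.50% of all genes, of which 7.26% had a member within 50 kb. SYT1, a synaptic vesicle protein, held a member of 45.5 with H3K27ac at 241 bp for 15 µM and 844 bp for 0 µM.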

How the data were processed

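Huh7 cells were profiled by ChIP-seq for H3K4me1 and H3K27ac at 15 µM and 0 µM choline, with 1 library per mark and dose. The other 8 of the 12 samples were not analysed here. The authors deposited 1 summit list per library, giving position, name and score. The score deposited by the authors was read, from the layout of MACS2 summit files, as −log10 of the caller's p or q. Which of the 2 it is, and whether inputs were used, is not given in the sources used here. Per the submitters' processing notes, Bowtie, Picard, deepTools and MACS2 were used with hg38. The score is the authors' own. The same score limit for strong summits and the same score bands were applied to both H3K4me1 lists. Median scores of these lists were 3.47 at 15 µM and 3.48 at 0 µM, and the highest scores were 158 and 15025. Whether a given score means the same in both lists was not tested.

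Chromosomes 1 to 22 and X were used, with 1-based positions. Lowest scores were 1.30 and 1.31 in the H3K4me1 lists at 15 and 0 µM and 5.01 in both H3K27ac lists, so the marks were listed from different thresholds. Genes are 19974 protein-coding genes of a RefSeq table of GRCh38.p14 without strand or exons. Starts were matched for 15812 of them from the RefSeq promoter table, with 1 start kept for each gene. Places therefore use either gene end, and starts were added afterwards. Exon, intron and UTR positions were not assigned, as no genome was used here. Python 3.11.15 with pandas 2.3.3, numpy 2.4.6, scipy 1.17.1 and matplotlib 3.10.9 was used, and the search was checked on simulated summits. No p-value was computed, since there are no replicates.

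The members and gene lists were chosen with earlier results of these data known. Named genes are the nearest genes of the 12 highest-scoring members (skipping members within 200 kb of one taken), of the 6 loci with the most members, of the 10 highest-scoring members within 1 kb of a gene's start or end, of the 6 highest-scoring members in each H3K27ac class, and up to 3 genes of each list with a member within 10 kb. A few genes that this rule names are not reported here. Further genes were picked with their values in view: the genes of the 14 members over 10 kb from any 0 µM summit, the 4 genes with the most members inside, and further genes of the lists with a member within 50 kb. Alternatives changed the distances, score limits, H3K27ac list lengths, windows and loci.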

Additional observations from a re-analysis of the deposited data

How the results depend on the processing

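The distance that defines the members set their number. With no 0 µM H3K4me1 summit within 1 kb there were 5261 members (13.3% of strong summits) in 4729 loci, within 5 kb there were 106 (0.269%) in 100 loci, and within 10 kb, a limit added once the data had been seen, 14 (0.0355%). In the order 15 µM then 0 µM, the shares with H3K27ac were then 34.9% and 39.7%, 27.4% and 26.4%, and 7.14% and 14.3%. The rest of the strong summits had 19.7% and 24.6% at 1 kb. At 5 kb and at 10 kb the rest had 21.7% and 26.6%, inside the members' intervals, so no excess was shown there. Places inside genes and between genes were 61.9% and 36.0% at 1 kb and 72.6% and 24.5% at 5 kb, where gene ends held 2.83%. With a score limit of 8, H3K27ac shares were 31.3% and 33.5%, with 62.4% inside genes and 35.5% between genes. With a limit of 15, members were 4.55% of strong summits and H3K27ac shares were 48.5% and 50.6%.

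Matching H3K27ac within 500 bp gave 27.7% at 15 µM and 25.3% at 0 µM, with 13.3% at both and 60.2% at neither. At that distance 14.5% (12.6 to 16.5) had it at 15 µM only and 12.1% (10.4 to 14) at 0 µM only. Within 5 kb the shares were 66.0% and 72.7%, with 4.39% at 15 µM only, 11% at 0 µM only, 61.6% at both and 23% at neither. H3K27ac lists of equal length gave 36.1% with 0 µM H3K27ac, 15.3% at 15 µM only, 10.2% at 0 µM only, 25.9% at both and 48.6% at neither. The order of the single-dose classes therefore depends on the distance and the list length. At 500 bp, and at 1 kb with the lists as deposited, the intervals of these classes overlap, so neither was clearly the larger. Gene ends held 6.32% and gene bodies 63.2% of members with ends taken to 2.5 kb, and 0.462% lay at annotated starts, likewise added later. Within 10 kb, 4.18% of genes had a member. In that window the genes with a member were 1 for the amino acid and ER stress response (5 at 50 kb), 5 for sterol and fatty acid synthesis (8), 1 each for the oncofetal list and the KLF and SP list (2 each), and 0 for the cell cycle, blood, and fibroblast, stellate and endothelial lists (1 each). The counts of the other 13 lists stayed within 1.5 times. The other 21 values of members, loci, places and H3K27ac moved less than their interval or by less than 1.5 times, among them 1 member per locus and the run without chromosome 2.

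No paired analysis was possible because each mark and dose had 1 library. Read depth is unknown, the lists have no replicates, and summits carry no peak width, so a shifted summit and an absent mark cannot be told apart.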

Other observations

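Scores repeated among the members. The 1298 members had 515 distinct scores, 937 of them shared their score with another member, and 58 had the commonest score, 10.6. Of the 14 members with no 0 µM H3K4me1 summit within 10 kb, those of FRG2C, POMP, AREL1, TXLNB, NIPAL2 and NVL had that score.

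Gaps without 0 µM H3K4me1 summits differed in what the 15 µM list held. The gaps of TXLNB, NIPAL2 and LONP2 held 12, 11 and 11 summits at 15 µM, with median scores of 2.22, 2.20 and 4.58, whereas those of FNDC3B and ACTBL2 held the member alone.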
